A study of Rattus norvegicus with 6 samples.

Results

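The genes described here encode the enzymes of cholesterol synthesis, the SREBP control system and the proteins of cholesterol uptake, transport, storage and efflux. They were taken by gene symbol from a fixed list of 32 names, and all 32 were present among the 40456 genes of the deposited count table. Other genes of the same pathways, apart from the lists named further on, are not analysed here. Expression had been measured by poly-A RNA sequencing in H9c2 (2-1) cells, a clonal line derived from embryonic rat heart that can be driven towards a muscle-like state. Both groups were of WT genotype by label, were differentiated over 5 days with retinoic acid added daily (1 µM) at low serum, and were transfected with Lipofectamine for 24 h before harvest. The control group (3 libraries) received a negative control LNA at 25 nM, and the knockdown group (3 libraries) received a Tug1 LNA at the same concentration. Each LNA is a gapmer, an antisense oligonucleotide with locked nucleic acid ends that directs RNase H to the RNA it pairs with, and Tug1 is a long non-coding RNA. The labels do not say whether the replicates were separate cultures, so the p-values measure the spread between these libraries, which may be technical.

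The 2 gapmers are shown because they are what the labels give as the difference between the groups. Each is 16 bases long, written 5′ to 3′ with no base marked.
Tug1 gapmer: attcagtagacagcta
Negative control gapmer: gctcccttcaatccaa

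Cholesterol is built from acetyl-CoA in an early arm that runs through mevalonate to farnesyl diphosphate and a later arm that runs from squalene through lanosterol to the finished sterol. The genes of both arms are classical targets of SREBP2, a transcription factor that is made as a membrane protein of the endoplasmic reticulum. When sterols are scarce, SCAP escorts SREBP2 to the Golgi, where it is cut to release its active part. When sterols are plentiful, INSIG proteins hold the SCAP complex back. Oxysterols activate the LXR receptors, which are known for raising cholesterol efflux genes.

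Total counts ran from 12978548 to 13544337 per library, so that 1 CPM (a count per 1000000 counts of the library, scaled here with TMM factors) was worth 12.9 to 13.8 counts. Control replicates 1 to 3 had 54.7, 52.0 and 55.4 CPM of Tug1, and the 3 knockdown libraries had 11.9, 11.2 and 12.5 CPM. The targeted RNA was thus lower in every library labelled as knockdown, at 22.0% of the control mean. The labels call the cells cardiomyocytes, but 5 of 6 adult cardiomyocyte markers (Myh6, Tnni3, Nppa, Myl7 and Ryr2) had at most 4 counts in any library, and Actn2 was near 1 CPM. A list of 7 skeletal myoblast markers had 6 genes tested, with 5 higher (Myog, Des, Myh3, Myl4 and Actc1) and 1 (Myod1) lower. Whether this list tells skeletal from cardiac muscle was not tested. Myf5 had at most 1 count in a library. These counts are to be read against the 30.8% higher and 30.9% lower over all tested genes. The summed level of the myoblast markers was 595 to 610.4 CPM in controls and 932 to 979 CPM after knockdown. Fibroblast markers summed to 21890.1 to 23141 CPM in controls and 18215 to 20213 CPM after knockdown. Most of that sum was Col1a1, with means of 21693 and 18554 CPM. Dcn was higher, Col1a1 lower and Pdgfra at no more than 8 counts in a library. Of 3 macrophage markers, Ptprc and Adgre1 were at 0 in all libraries, and Cd68 was at 2.84 to 4.72 CPM in controls and 6.38 to 8.65 CPM after knockdown. Of 2 hepatocyte markers, Alb was at 0 and Ttr under 1 CPM. In the RefSeq gene table, Idi1, Npc1 and Nr1h3 share 100, 283 and 1400 bases with a protein-coding gene on the opposite strand (Wdr37, Rmc1 and Acp2). Srebf1 shares 596 bases with Rai1. Acat2, Hmgcs1, Fdft1 and Insig1 share 111, 466, 3825 and 123 bases with a long non-coding gene. Whether the counting used strand is not given in the sources used here, so reads of each such pair may not be told apart. The part of muscle differentiation or of a shift in cell state in the results below was not tested, and in bulk RNA fewer cells of a type and less RNA per cell cannot be told apart.

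Most of the synthesis enzymes were higher after knockdown, while the feedback gene Insig1 was lower. Among the 7 tested genes listed for sterol movement and its control, 5 were lower (Stard4, Soat1, Npc1, Npc2 and Mylip). The exporter gene Abca1 was higher, and the LXR gene Nr1h2 was not called. A further list, mostly of sterol uptake and transport genes and given at the end, did not lean towards lower levels (8 of 17 higher and 3 lower). Of the 32 genes, 30 could be tested. By edgeR's quasi-likelihood test, 23 were called at an adjusted p under 0.05, with 14 higher and 9 lower. Knockdown moved a large part of the transcriptome: 61.7% of the 14216 tested genes passed the same threshold, 30.8% higher and 30.9% lower, and for 65.6% the groups of 3 libraries did not overlap. The 23 of 30 here, which also were the genes whose groups did not overlap, are therefore to be read against that share. The median absolute log2 fold change was 0.44 over these 30 genes and 0.34 over all tested genes. The 2 genes that could not be tested were Abcg1 and Nr1h3, described with the efflux genes.

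**Figure D1:**
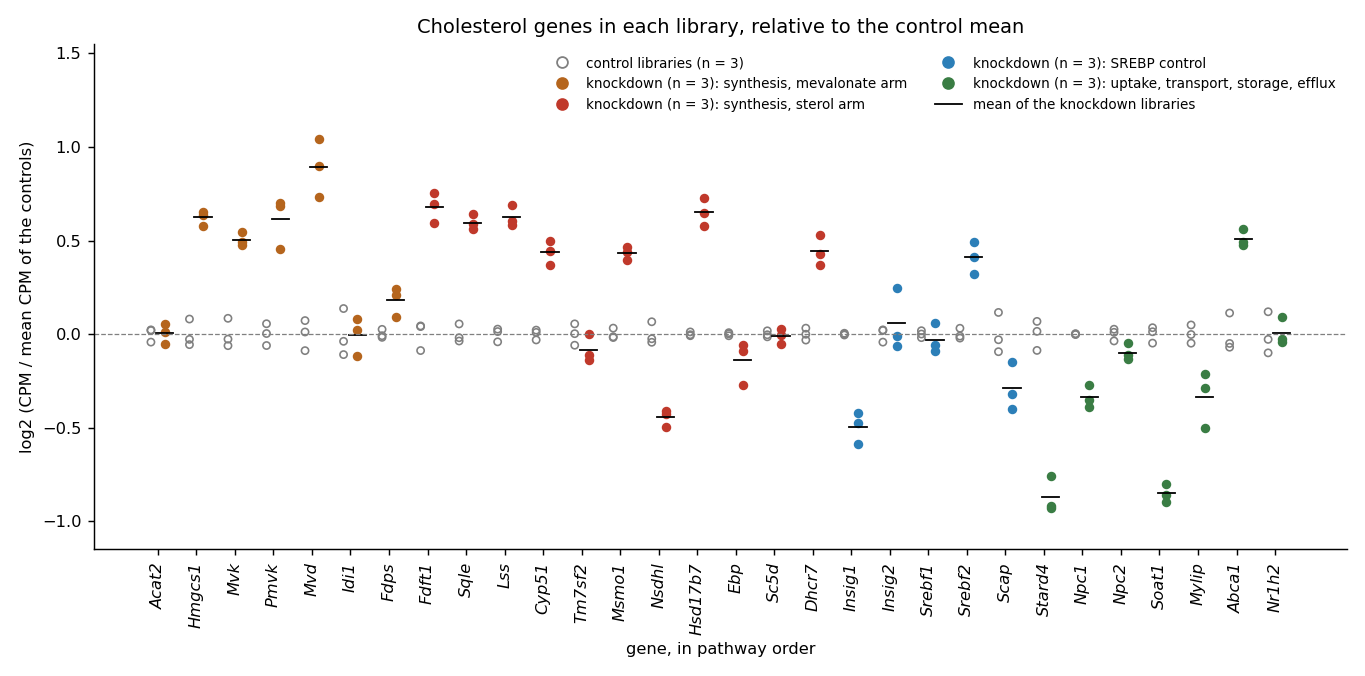
Level of each of the 30 tested genes in each library, as log2 of CPM over the mean CPM of the 3 controls, with genes in pathway order along the horizontal axis. Open circles are control libraries, filled circles are knockdown libraries coloured by role, and short black lines are knockdown means; 12 synthesis enzymes lie above the controls, and Stard4 and Soat1 lie lowest.

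The early arm of synthesis was higher at 5 of its 7 genes, and none of the 7 was lower by the test. Over all tested genes, 30.8% were higher and 30.9% lower. The median log2 fold change of the arm was 0.50. The largest change was that of Mvd, mevalonate diphosphate decarboxylase, which makes isopentenyl diphosphate. Mvd was at 158, 165 and 147 CPM in the 3 controls and at 292, 323 and 260 CPM after knockdown, each in the order of the replicate numbers, as for every gene below. Every knockdown library lay well above every control, although the knockdown libraries also differed among themselves. The change was 1.86-fold, a log2 fold change of 0.90 (SE 0.0621, adjusted p 2.45e-11), larger than that of 93.8% of the tested genes.

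Hmgcs1, the cytosolic HMG-CoA synthase that starts the committed route to mevalonate, was at 647, 659 and 711 CPM in the controls and 1046, 1057 and 1004 CPM after knockdown. The groups were far apart relative to their spread, with a 1.54-fold change (log2 0.62, SE 0.0443, adjusted p 3.6e-11). The 2 kinases that phosphorylate mevalonate in turn were higher as well. Mvk rose from 58.9 ± 3.15 to 83.6 ± 2.05 CPM (SD, n = 3), or 1.42-fold, and Pmvk from 37.9 ± 1.53 to 58.2 ± 5.40 CPM (SD, n = 3), or 1.53-fold, with edgeR adjusted p of 8.06e-08 and 9.05e-08.

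The other 3 genes of the early arm moved little or not at all. Fdps, farnesyl diphosphate synthase, was at 458, 455 and 469 CPM in controls and 533, 545 and 490 CPM after knockdown, a small rise of 1.13-fold (log2 0.18, SE 0.0453, adjusted p 0.00138) with no overlap between the groups. Acat2, the cytosolic acetoacetyl-CoA thiolase, averaged 322 ± 8.15 CPM without and 323 ± 11.9 CPM with knockdown (SD, n = 3). Its log2 fold change was 0.00 with a 95% confidence interval from -0.09 to 0.10, so that a change of the size seen for Hmgcs1 lies outside the interval. Idi1, isopentenyl diphosphate isomerase, had 187 ± 16.6 and 186 ± 13.0 CPM (SD, n = 3), with an interval from -0.13 to 0.12. Acat2 and Idi1, each next in the route to genes that rose, had overlapping groups of libraries.

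The later arm had 7 of 11 genes higher and 2 lower (30.8% and 30.9% over all tested genes), with a median log2 fold change of 0.44. Its first 3 enzymes rose by similar amounts. Fdft1, squalene synthase, was at 155, 142 and 155 CPM in controls and 243, 253 and 227 CPM after knockdown. Its groups did not overlap, and the change was 1.60-fold (log2 0.68, SE 0.0522, adjusted p 1.26e-10). Sqle, the squalene epoxidase, rose from 315 ± 10.7 to 476 ± 13.4 CPM (SD, n = 3), or 1.51-fold. Lss, which closes the ring to lanosterol, rose from 244 ± 6.04 to 376 ± 15.0 CPM (SD, n = 3), or 1.54-fold.

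Among the enzymes that trim and rearrange lanosterol the changes were mixed. Hsd17b7, a 3-ketosteroid reductase of the C4 demethylation complex, was at 67.2, 67.9 and 66.9 CPM in controls and 105, 111 and 101 CPM after knockdown. The controls were almost identical and the knockdown libraries all higher, by 1.57-fold (log2 0.65, SE 0.0554, adjusted p 7.11e-10). Cyp51, the lanosterol demethylase, rose 1.35-fold from 701 ± 13.3 to 950 ± 42.5 CPM (SD, n = 3). Msmo1, the methylsterol oxidase of the C4 complex, also rose 1.35-fold, from 348 ± 6.77 to 470 ± 10.9 CPM (SD, n = 3). Dhcr7, which reduces 7-dehydrocholesterol, rose 1.36-fold from 133 ± 2.93 to 181 ± 9.96 CPM (SD, n = 3). The edgeR adjusted p of these 3 genes ran from 7.53e-09 to 8.93e-08.

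Nsdhl went the other way. It encodes the C4-decarboxylating sterol dehydrogenase that works between Msmo1 and Hsd17b7 in the same complex. Its level was 147, 145 and 156 CPM in controls and 111, 112 and 106 CPM after knockdown. All knockdown libraries lay below all controls, and Nsdhl fell by 0.44 on the log2 scale (SE 0.0514, adjusted p 1.06e-07), to 0.736 of the control level. Ebp, the sterol isomerase, was slightly lower at 99.2, 99.6 and 98.5 CPM against 93.1, 95.4 and 82.2 CPM. Its log2 fold change of -0.13 (SE 0.0579) only just passed (adjusted p 0.0474). It did not pass without control replicate 1 (adjusted p 0.103), control replicate 2 (0.0915), control replicate 3 (0.0776) or knockdown replicate 3 (0.322, at a log2 fold change of -0.07), and with an offset for genomic span it was at -0.02.

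Sc5d, the lathosterol desaturase, had 313 ± 3.54 and 310 ± 8.56 CPM (SD, n = 3), and Tm7sf2, a sterol C14 reductase, had 65.1 ± 2.57 and 61.6 ± 3.12 CPM (SD, n = 3). Neither passed the test, with 95% intervals of -0.10 to 0.08 and -0.20 to 0.04 on the log2 scale. Over all 18 synthesis genes, 12 were higher (30.8% of all tested genes), 2 lower (30.9%) and 4 not called. The median log2 fold change was 0.44 where that of all tested genes was 0.00. The summed level of the 18 genes went from 4479.6 ± 92.7 to 5873 ± 235 CPM (SD, n = 3). Cyp51 and Hmgcs1, the genes of highest level, weigh most in that sum. The log2 fold changes of the enzymes that rose ran from 0.18 (Fdps) to 0.90 (Mvd).

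**Figure D2:**
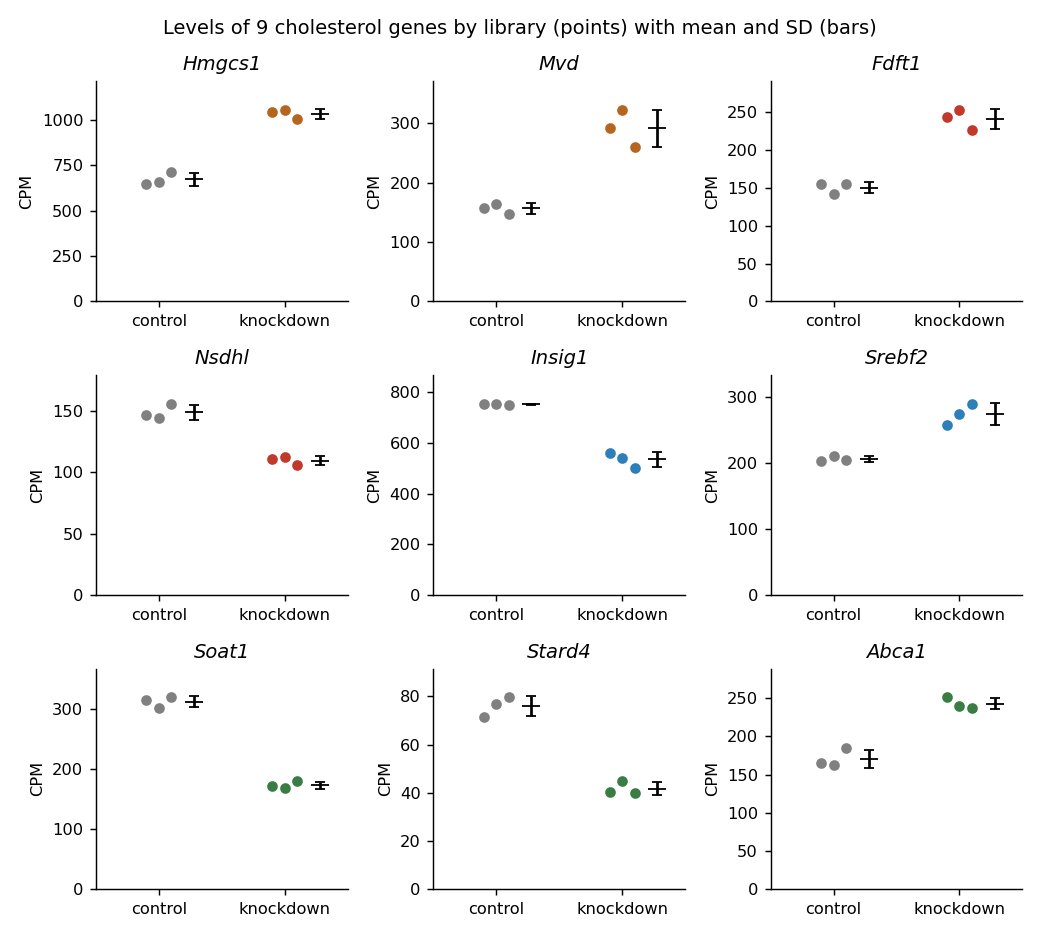
Levels of 9 genes in CPM on a linear axis from 0, with 1 point per library for the controls (left) and the knockdown (right), and a bar for mean and SD of 3 libraries. Hmgcs1, Mvd, Fdft1, Srebf2 and Abca1 are higher in all knockdown libraries, and Nsdhl, Insig1, Soat1 and Stard4 lower.

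The SREBP control genes split. Srebf2, which encodes SREBP2, was at 203, 211 and 205 CPM in controls and 258, 275 and 290 CPM after knockdown. The groups did not overlap, and Srebf2 rose 1.33-fold (log2 0.41, SE 0.0487, adjusted p 1.45e-07). With the offset for genomic span its rise was smaller, at 0.30 on the log2 scale, and still passed. Srebf1, which encodes the relative more tied to fatty acid synthesis, averaged 89.0 ± 1.14 CPM without and 87.2 ± 4.78 CPM with knockdown (SD, n = 3), with overlapping groups and a 95% interval from -0.14 to 0.09 on the log2 scale. The log2 ratio of Srebf1 to Srebf2 fell by 0.44 between the groups, from -1.20 ± 0.0122 to -1.63 ± 0.0992 (SD, n = 3). In an exact two-sided permutation test this gave p = 0.1, the smallest that 3 libraries against 3 can give, and 0.133 after adjustment over the 4 gene pairs compared.

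Insig1, an SREBP target whose protein holds the SCAP complex in the reticulum, did not follow the synthesis enzymes. It was at 752, 755 and 750 CPM in controls and at 561, 542 and 500 CPM after knockdown. The controls were nearly identical, every knockdown library was lower, and Insig1 fell by 0.49 on the log2 scale (SE 0.0449, adjusted p 2.26e-09), to 0.710 of the control level. Insig2, which encodes the other retention protein, was at 49.1, 51.2 and 51.4 CPM against 60.1, 48.4 and 50.1 CPM. Only knockdown replicate 1 stood above the controls, and the log2 fold change of 0.07 (SE 0.0724, 95% interval -0.08 to 0.22) did not pass. The log2 ratio of Insig1 to Insig2 fell by 0.55, from 3.84 ± 0.0360 to 3.29 ± 0.129 (SD, n = 3), with the same exact permutation p of 0.1. Those ratios compare CPM without gene length, so only their change is read.

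Scap was modestly lower, at 90.0, 99.6 and 86.1 CPM in controls and 73.6, 83.1 and 69.8 CPM after knockdown. The spread within each group was wide, the groups just failed to overlap, and the log2 fold change was -0.28 (SE 0.0663, adjusted p 0.000734). The transcripts Scap and Insig1 were thus lower while Srebf2 was higher, and Insig2 and Srebf1 were not called.

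Sterol movement outside synthesis was represented by 9 names on the list: 7 were tested, 5 were lower, 1 was higher and 1 was not called. Over all tested genes, 30.9% were lower and 30.8% higher, and 1 of the 5 lower genes, Npc2, only just passed. The median log2 fold change of the 7 was -0.33. Stard4, a soluble sterol carrier of the cytosol that is itself an SREBP target, had the lowest log2 fold change of the 7. It was at 71.5, 76.7 and 79.6 CPM in controls and 40.2, 44.8 and 39.9 CPM after knockdown. No knockdown library came near the controls, and Stard4 fell by 0.87 on the log2 scale (SE 0.0642, adjusted p 7.3e-11). Only 6.79% of tested genes had a lower log2 fold change.

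Soat1, which esterifies cholesterol for storage in lipid droplets, was nearly as low. Its level went from 315, 302 and 319 CPM in controls to 172, 168 and 179 CPM after knockdown, a tight separation. The log2 fold change was -0.85 (SE 0.0465, adjusted p 5.14e-13), or 0.555 of the control level. The proteins that release cholesterol from late endosomes and lysosomes are NPC1 in the membrane and NPC2 in the lumen. Npc1 was at 176 CPM in each of the 3 controls and at 138, 146 and 134 CPM after knockdown, and it fell by 0.34 on the log2 scale (SE 0.0486, adjusted p 2.61e-06). Npc2 was at 1128, 1178 and 1165 CPM against 1069, 1118 and 1055 CPM. Its groups lay close together, its log2 fold change of -0.10 (SE 0.0411, adjusted p 0.0423) was at the edge of the threshold, and it did not pass without control replicate 1 (adjusted p 0.0534), control replicate 2 (0.118), control replicate 3 (0.0927), knockdown replicate 1 (0.117) or knockdown replicate 3 (0.127). The log2 ratio of Npc1 to Npc2 fell by 0.23 (exact permutation p = 0.1).

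Mylip, the ubiquitin ligase that removes lipoprotein receptors from the surface and an LXR target, had the lowest control mean of the tested genes. Its counts ran from 247 to 353 per library. It was at 25.5, 27.3 and 26.4 CPM in controls and 22.8, 21.7 and 18.7 CPM after knockdown, a log2 fold change of -0.33 (SE 0.0864, adjusted p 0.00222) with no overlap. Abca1, the main exporter of cellular cholesterol to apolipoprotein A-I and a classical LXR target, moved in the opposite direction. It was at 165, 162 and 184 CPM in controls and 251, 240 and 237 CPM after knockdown, so that all knockdown libraries were above all controls. Abca1 rose 1.42-fold (log2 0.51, SE 0.0517, adjusted p 1.26e-08). With an offset for genomic span, described with the processing, its rise was smaller, at 0.28 on the log2 scale, and still passed.

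Of the LXR genes themselves, Nr1h2 (LXR beta) had 85.6 ± 6.72 and 86.2 ± 4.43 CPM (SD, n = 3), with overlapping groups and a 95% interval from -0.12 to 0.14. With the span offset Nr1h2 was at 0.14 and passed as higher (adjusted p 0.0392). Nr1h3 (LXR alpha) had 8, 6 and 6 counts in controls and 8, 19 and 8 counts after knockdown, too few to be tested, and only knockdown replicate 2 stood apart. The log2 ratio of Nr1h2 to Nr1h3 changed by -0.17 (exact permutation p = 0.2), with overlapping groups. With so few Nr1h3 counts that value depended on the pseudocount, being -0.37 at 0.5 in place of 2 CPM, and it was -0.08 without knockdown replicate 2. Abcg1, the exporter to high density lipoprotein, had 0 counts in all 6 libraries. A count of 0 allows up to 3 counts, which is 0.217 to 0.232 CPM, a limit for counting error alone, since these reads carry no molecular identifiers. The study's cells thus had Abca1 and Nr1h2 transcripts, with Abcg1 not detected at this depth.

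Set side by side, the median log2 fold change was 0.44 for the 18 synthesis genes and -0.33 for the 7 tested genes of uptake, transport, storage and efflux, a difference of 0.77. The same difference taken within each library, relative to the control means, was 0.02, -0.02 and 0.01 for the 3 controls, against 0.66, 0.78 and 0.77 for the 3 knockdown libraries. The control values are small by construction, since each level was taken relative to the mean of these same controls. They are therefore no measure of how far the knockdown libraries stood apart. The pooled SD within groups was 0.0521, with the knockdown values more widely spread than the controls. The 7 tested genes have unlike roles, and they include the exporter gene Abca1, which rose, and the LXR gene Nr1h2. Their median is the value of Mylip, whose product removes lipoprotein receptors. It is therefore no measure of uptake or of efflux taken alone. The genes of both groups were chosen with earlier results of these data known, so no test is attached to the difference.

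**Figure D3:**
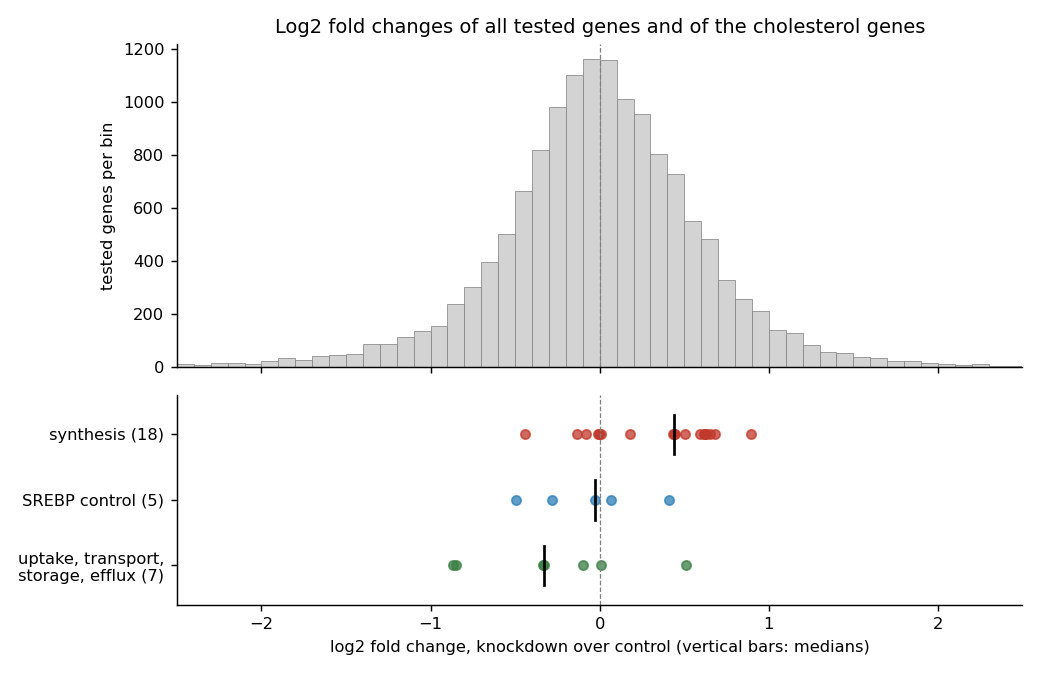
Upper panel, number of tested genes per bin of log2 fold change (knockdown over control); 77 genes lie beyond the plotted limit of 2.5 in either direction. Lower panel, log2 fold changes of the tested synthesis, SREBP control and transport genes, 1 point per gene, with vertical bars at the medians of 0.44, -0.03 and -0.33.

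Promoter sequences were examined for what these genes share beyond their products. RefSeq promoters of the rat assembly GRCr8, from 250 bases before to 50 bases after the annotated start, were found for 27 of the 32 genes. Those without an entry were Pmvk, Fdft1, Sqle, Stard4 and Abcg1. Both strands were searched for 5 motifs, none of which contains another, with every match counted, also where matches overlap: a sterol regulatory element (TCACNCCAC), the NF-Y box (CCAAT), the Sp1 box (GGGCGG), an E-box (CACGTG) and an LXR element with a direct repeat spaced by 4 bases (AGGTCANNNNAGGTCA). NF-Y and Sp1 are known partners of SREBP at sterol genes.

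The NF-Y box was present in 19 of 27 promoters (70.4%), against 37.7% of 27457 promoters in the table and 37.8% of those of tested genes. Of the 15 synthesis promoters, 12 held it, as did 3 of 7 transport promoters. The Sp1 box was in 22 of 27 (81.5%), against 34.9% of all promoters and 60.5% of those of tested genes. By direction of change, the NF-Y box was in 8 of 11 promoters of genes that were higher, 6 of 8 of genes that were lower and 5 of 7 of genes not called, in both directions. The Sp1 box was in 11 of 11, 7 of 8 and 4 of 7. The E-box was in 4 promoters (Sc5d, Insig1, Scap and Abca1), or 14.8% against 6.65% of all and 9.31% of those of tested genes. The sterol element as spelled was in 0 of 27 and in 1.13% of all promoters, and the LXR element in 0 of 27 and in 1 promoter of the table. A match or its absence describes only these letters in this window.

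**Figure D4:**
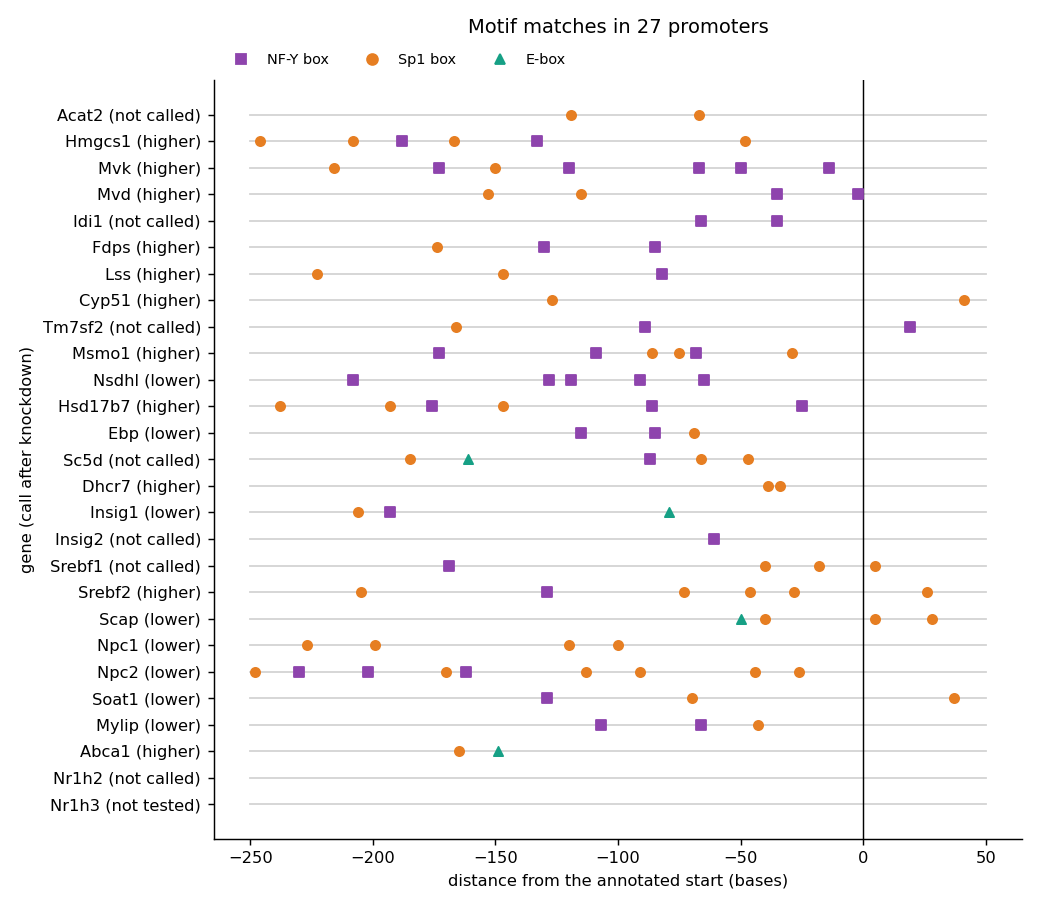
Positions of NF-Y boxes (squares), Sp1 boxes (circles) and E-boxes (triangles) on either strand in 27 promoters. A position is the distance in bases from the annotated start (vertical line) to the most upstream base of the match. Each row is a gene with its call after knockdown; NF-Y boxes occur in 19 rows, in genes that were higher, lower and not called.

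The promoters of Mvd and Hsd17b7, the synthesis genes with an entry whose levels changed most, are shown with that of Insig1, which was chosen after its values were seen because it fell. Capitals mark the NF-Y box on either strand, and each sequence runs 5′ to 3′ on the strand of its gene in GRCr8. Mvd lies on the minus strand of chromosome 19 (chr19:67414925-67415224) and has 2 marked boxes. Hsd17b7 lies on the minus strand of chromosome 13 (chr13:84722705-84723004) and has 3, and Insig1 lies on the minus strand of chromosome 4 (chr4:8057720-8058019) and has 1.
Mvd: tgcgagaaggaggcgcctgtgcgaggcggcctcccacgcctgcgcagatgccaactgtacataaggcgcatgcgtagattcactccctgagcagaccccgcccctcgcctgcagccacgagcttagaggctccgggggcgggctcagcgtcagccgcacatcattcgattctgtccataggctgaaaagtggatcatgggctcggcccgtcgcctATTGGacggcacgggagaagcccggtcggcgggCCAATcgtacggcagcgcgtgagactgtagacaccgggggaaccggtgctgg
Hsd17b7: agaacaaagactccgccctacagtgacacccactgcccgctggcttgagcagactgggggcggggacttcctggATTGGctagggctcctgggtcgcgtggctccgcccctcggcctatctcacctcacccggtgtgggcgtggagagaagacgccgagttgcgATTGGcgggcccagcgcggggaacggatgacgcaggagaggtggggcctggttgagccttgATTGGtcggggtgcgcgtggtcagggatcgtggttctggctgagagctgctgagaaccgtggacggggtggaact
Insig1: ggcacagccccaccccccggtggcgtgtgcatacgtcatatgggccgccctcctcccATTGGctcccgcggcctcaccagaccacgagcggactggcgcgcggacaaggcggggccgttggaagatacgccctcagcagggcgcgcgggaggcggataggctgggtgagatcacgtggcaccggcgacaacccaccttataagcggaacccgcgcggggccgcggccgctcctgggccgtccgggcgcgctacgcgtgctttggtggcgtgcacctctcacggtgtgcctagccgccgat

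Neighbouring parts of the pathway were described from 6 further lists, 64 genes in all, of which 59 were tested, 23 were higher and 19 lower. Each count below is to be read against the 30.8% higher and 30.9% lower over all tested genes, and with so large a background the counts say little about any 1 list. The SREBP fatty acid list had 8 of 12 genes higher and 3 lower, with a median log2 fold change of 0.42. Acss2, which makes acetyl-CoA from acetate, rose from 69.0 ± 3.19 to 299.7 ± 26.3 CPM (SD, n = 3), and Lpin1, a phosphatidate phosphatase, from 15.5 ± 0.972 to 54.9 ± 4.56 CPM (SD, n = 3). The desaturase Fads1 fell by 1.34 on the log2 scale, from 396 ± 12.0 to 156 ± 7.07 CPM (SD, n = 3), and the elongase Elovl5 fell by 0.67. That list therefore held both the largest rises and the largest fall among the genes named here, apart from Tug1.

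The list of SREBP processing and sterol sensing genes had 7 of 12 lower and 2 higher, with a median of -0.28, where 30.9% of all tested genes were lower. Rnf139, a sterol-sensing ubiquitin ligase of the reticulum, fell by 1.07 on the log2 scale, from 77.1 ± 4.16 to 36.6 ± 2.74 CPM (SD, n = 3). Tmem97, a sterol-responsive membrane protein that binds NPC1, fell by 0.54. The 2 genes of the list that rose were those for the Golgi proteases that cut SREBPs, Mbtps1 (log2 0.21, SE 0.0462) and Mbtps2 (log2 0.46, SE 0.0847). The protease genes and Srebf2 were thus higher where Scap and Insig1 were lower.

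A further list of 17 genes, mostly of sterol uptake and transport, had 8 higher and 3 lower, with a median of 0.15. The share called was thus close to the 61.7% over all tested genes. Lbr, which is on the list but encodes a sterol reductase, was not called. The lipoprotein receptors moved apart. Scarb1, the high density lipoprotein receptor, fell by 0.83 on the log2 scale (40.4 ± 4.22 to 22.8 ± 1.90 CPM; SD, n = 3) and Vldlr by 0.37, while Lrp8 rose by 0.43 and the sterol carrier gene Osbpl9 by 0.41. Whether this list differed from the transport genes above was not tested. In the isoprenoid branches, 3 of 11 genes were higher and 4 lower, with a median of 0.01, again close to the background share of 61.7% called. Pdss2 (log2 1.10) and Coq2 (0.50) of ubiquinone synthesis rose, and Fnta (-0.54), a prenyltransferase subunit, and Ggps1 (-0.30), which makes geranylgeranyl diphosphate, fell.

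The oxysterol enzymes were sparse: 4 of 6 were tested, with 1 higher (Hsd3b7, log2 0.47) and 1 lower. Of 6 LXR targets outside the main list, 3 were tested, Lpcat3 being higher (log2 0.19, SE 0.0472) and Arl4c lower (-0.99, SE 0.0618). The LXR targets thus showed no common direction, Abca1 and Lpcat3 being higher and Mylip and Arl4c lower.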

How the data were processed

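Poly-A RNA libraries (stranded kit, 500 ng of total RNA) were compared between 3 control and 3 knockdown samples, grouped by their titles. The authors deposited raw whole-number counts per gene and library; FastQC 0.11.7, fastp 0.14.1 and STAR 2.5 are named in the submitters' processing notes, while the counting tool, strand setting, genome build and annotation are not given in the sources used here. Low genes were removed with filterByExpr of edgeR (10 counts as minimum and 15 as minimum total), which left 14216 genes with 99.8% of the counts of each library. They were scaled by TMM and tested on all 6 libraries with edgeR's quasi-likelihood test (edgeR 4.0.16, R 4.3.3, two-sided, prior count 0.125, no block), with Benjamini-Hochberg adjustment over all 14216 genes. A gene was called at an adjusted p under 0.05. Fold changes are knockdown over control. Levels are CPM on the TMM scale and are not corrected for gene length, so they are compared within a gene. Sums over several genes are compared only between the groups, and genes of high level weigh most in them. SE is that of the log2 fold change, and intervals are at 95%. Groups of genes are given by counts and medians, without a set test.

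The genes and all lists were chosen with earlier results of these data known. All 32 genes are described; from each further list at most 2 risen and 2 fallen genes are named, ranked by log2 fold change among those averaging 5 CPM or more. Log2 ratios of gene pairs used CPM plus 2; the planned pair of Abca1 and Abcg1 was not computed because Abcg1 had 0 counts. Printed promoters were to be those with the sterol element, or else the 2 synthesis genes with the largest change. No protein sequence was used here. Alternatives were scaling by DESeq2 size factors or by library totals, testing with DESeq2 1.42.0 (Wald) or with limma-voom (limma 3.58.1), filtering at 1 count or at a mean of 1 CPM, a stricter threshold of 0.01, a block for the replicate number, leaving out single libraries, and an offset that removes a lowess trend (span 0.3) of each library on genomic span from the RefSeq GRCr8 table, which had a span for 13084 tested genes (92.0%). The fits were also run on simulated counts in which few genes changed, in balanced directions. That run does not cover a change as wide as the one here, so nothing is drawn from it. Replicates differed by more than sampling noise (lowest chi-square per degree of freedom 2.18).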

Additional observations from a re-analysis of the deposited data

How the results depend on the processing

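Of the 30 tested genes, 21 kept their direction and call in all 16 alternatives run on them, while 9 changed in at least 1. Of the 480 values this gave, 438 were unchanged in direction and call, 18 were weaker, 2 stronger and 22 reversed. The 9 were genes with no call (Acat2, Idi1, Tm7sf2, Sc5d, Insig2, Srebf1 and Nr1h2) or near the threshold (Ebp and Npc2). Tug1 ranged from -2.22 to -2.08, the count of called genes among the 32 from 21 to 23, and the count of all called genes from 7353 to 8987. The median of all tested genes moved to 0.06 with library totals.

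Pairing by replicate number was not seen, since libraries of the same number correlated in their deviations at -0.0053, 0.0298 and 0.027. With the number as a replicate block, 23 of the 32 genes and 8848 genes in all were called, and the block alone changed no call among the 32.

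Lower synthesis genes numbered 1 instead of 2 (Ebp lost) with library totals, DESeq2's Wald test, the adjusted p of 0.01, the span offset and the span offset with the block, and 1 to 2 when a library was left out. Lower transport genes numbered 4 instead of 5 (Npc2 lost) with library totals (Npc2 at -0.05, adjusted p 0.333), the adjusted p of 0.01, the span offset (adjusted p 0.103) and the span offset with the block (0.062), and 4 to 5 when a library was left out. Higher transport genes numbered 2 with the span offset, with or without the block (Nr1h2 gained). Without a filter the synthesis minus transport difference was 0.654, since Nr1h3 then entered the median, and leaving out single libraries gave 0.724 to 0.786.

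Reversed signs, all of genes without a call, were as follows. With library totals Idi1 was at 0.0491, Sc5d at 0.0436 and Srebf1 at 0.0237. Without a filter Acat2 was at -0.00582 and Nr1h2 at -0.00142. With the span offset Idi1 was at 0.0989, Tm7sf2 at 0.0698 and Sc5d at 0.0617, and with the block added at 0.102, 0.0699 and 0.0617. When a library was left out, Acat2 ran from -0.0182 to 0.0348, Idi1 from -0.0576 to 0.0720, Sc5d from -0.0259 to 0.0140, Insig2 from -0.0356 to 0.128, Srebf1 from -0.0725 to 0.00301 and Nr1h2 from -0.0360 to 0.0714. Apart from the filter, the cause was not tested.

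In the 150 bases before the start, the NF-Y box was in 16 promoters, the Sp1 box in 18 and the E-box in 3. The 4 pair ratios kept their sign with a pseudocount of 0.5 CPM and without any 1 library, but that of Nr1h2 to Nr1h3 ran from -0.37 to -0.08. Depth limits Nr1h3, which had too few counts for the main test, and Abcg1, which had 0.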

Other observations

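Among the 12 synthesis genes that rose, knockdown replicate 3 was the lowest of the 3 knockdown libraries for 11, and knockdown replicate 2 was the highest for 11. How often genes outside the synthesis group showed this order was not counted, so it may not be particular to them. The median level of the 18 synthesis genes relative to the control mean was 0.44, 0.51 and 0.38 on the log2 scale in knockdown replicates 1 to 3. The tested cholesterol genes varied little within the groups, with a median coefficient of variation of 2.74% in controls and 5.15% after knockdown, against 6.72% and 6.77% over all tested genes. The cholesterol genes were well expressed, with control means from 26.4 to 1157 CPM, and no correction for level was made to that comparison.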
